A study of Mus musculus with 23 samples.

Results

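The SLC25 genes encode mitochondrial carriers, the proteins that move metabolites, nucleotides and cofactors across the inner mitochondrial membrane. They were taken from the deposited expression table by symbol, as all entries that begin with Slc25a and a digit, without Slc25a1 and Slc25a20. This rule found 45 of 24029 genes and used no measured value. The uncoupling proteins Ucp1, Ucp2 and Ucp3 belong to the same protein family but carry other symbols, and are given apart from the 45 carriers.

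RNA came from C3H10T1/2, a mouse mesenchymal stem cell line of strain C3H that can form fat cells in culture. All 6 RNA libraries came from cells that had received 8.3 nM BMP7 for 3 days before differentiation. The 2 day 0 libraries (1 standard, 1 TELP N9) stand for pre-adipocytes. The 4 day 7 libraries (1 each of standard, TELP N9, TELP N9_ss and TELP T18) stand for mature adipocytes. These were induced until day 2 with 5 uM DEX, 0.5 mM IBMX, 0.12 ug/ml insulin, 1 uM of a compound labelled Rosi and 1 nM T3, and then kept on insulin, Rosi and T3. TELP is the library construction method under study, and the standard libraries were its reference. The labels spell out none of N9, ss and T18, and nothing in them says that the libraries came from separate cultures. Every group is 1 library of 1 cell line, so no difference below has a replicate check. The other 17 of the 23 samples are chromatin immunoprecipitation libraries and were not analysed here.

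Mitochondrial carriers share one fold and mostly work as exchangers, taking one substrate in for another that leaves. Through them ADP and phosphate reach the ATP synthase, reducing equivalents from cytosolic NADH enter by the malate-aspartate shuttle, and malate, glutamate, iron, coenzyme A and NAD gain access to the matrix. In fat cells they connect mitochondrial metabolism with the cytosolic synthesis of fatty acids and glycerol.

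Expression is in RPKM, reads scaled to gene length and to the read total of the library. Values in all libraries are given in a fixed order, day 0 standard and TELP N9, then day 7 standard, TELP N9, N9_ss and T18. Differences are of log2(RPKM + 1), a scale that understates the change of low genes. A gene was kept for a comparison at a mean of at least 1 RPKM over its libraries, and called higher or lower at a difference of at least 1 log2 unit. Over the 4 libraries that make up the standard and TELP N9 day pairs, 35 carriers were kept and 10 were not. Of these 10, Slc25a31, Slc25a43 and Slc25a48 were listed at 0 in all 6 libraries, and Slc25a2, Slc25a18, Slc25a21, Slc25a41, Slc25a47, Slc25a53 and Slc25a54 were at 0.606 RPKM or less in each library. In bulk RNA of this kind, fewer cells of a type and less RNA per cell cannot be told apart.

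The cells carried the markers of their labels. All 8 adipocyte markers reached 1 RPKM in each day 7 library, against 5 of 8 at day 0. Their summed level was 43.4 and 33.7 RPKM at day 0 and 14714, 32463, 32973 and 5185 RPKM at day 7. The 6 preadipocyte and mesenchymal markers summed to 342 and 369 RPKM at day 0, and to 232 RPKM in the standard but 53.0 RPKM in the TELP N9 library at day 7. The 2 libraries of day 7 that most comparisons use thus differed in both lists. At day 7 brown adipocyte markers summed to 7.42 RPKM in the standard, 92.3 in the TELP N9 and 1.27 RPKM in the T18 library. Only 2 of the 5, Cidea and Elovl3, reached 1 RPKM in the standard and TELP N9 libraries. In TELP N9 they stood at 48.6 and 41.9 RPKM, nearly all of the sum. Ucp1, Prdm16 and Dio2 stood there at 0.882, 0.772 and 0.0647 RPKM, and Ucp1 was listed at 0 in the standard library. Liver markers Alb and Apoa1, the muscle gene Ckm and the bone gene Ibsp were listed at 0 in all 6. Summed levels reached at most 36.6 RPKM for muscle markers, nearly all of it Acta1, 11.3 for endothelial, 4.97 for chondrocyte, 4.70 for macrophage and leukocyte and 0.628 RPKM for osteoblast markers. Between 10306 and 11306 genes reached 1 RPKM in 5 libraries and 6797 in the T18 library, where small noncoding RNAs took 81.0% of summed RPKM, against 9.22% to 36.0% in the others. Relative to the standard library of day 0, depth read from the steps of low values was 0.985 for the standard day 7 library and 1.57, 0.382 and 0.331 for TELP N9 at day 0, TELP N9 at day 7 and T18.

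Day 7 was compared with day 0 within each library type, which asks how the carriers differ between mature adipocytes and their precursors. In the standard libraries 8 of 35 carriers kept (22.9%) were called higher and 1 (2.86%) lower, against 8.22% and 6.53% of all genes kept. In the TELP N9 libraries 17 of 35 (48.6%) were called higher and 5 (14.3%) lower, against 13.9% and 29.9% of all genes. The carriers had a median difference of 0.36 log2 units with the standard procedure and 0.83 with TELP N9, beside -0.18 and -0.45 over all genes. Called in the same direction in both types were 8 carriers higher and 1 lower, beside 7.23% and 5.81% of all genes. Among the 8 were Slc25a5, Slc25a10, Slc25a22, Slc25a25, Slc25a34, Slc25a39 and Slc25a42, and the 1 was Slc25a24. A further 9 carriers were called higher and 4 lower in TELP N9 only, and 13 in neither type. These splits stand without their own shares over all genes, and nothing is read from their size.

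The scaling of a library bears on these splits. Among all genes called in the standard libraries 55.7% were higher, and 66.1% under median-of-ratios scaling. In the TELP N9 libraries 31.8% were higher, against 53.9% under median-of-ratios scaling and 49.5% under quantile normalization, which moved the median of all genes from -0.45 to 0.03 and -0.05. The median of the carriers in TELP N9 became 1.57 and 1.11 under these scalings. All 9 carriers called in both types were called in both under each of the 3 scalings tried.

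Differences were larger in the TELP N9 pair. Of 35 carriers, 32 had the same sign in both types and 31 of them lay further from 0 in TELP N9, against 82.2% and 70.4% of all genes kept. The 3 with opposite signs were Slc25a15, Slc25a40 and Slc25a30, of which the first pair stayed within 0.20 log2 units of 0. Between the days the summed preadipocyte markers also lay further apart in TELP N9 (369 and 53.0 RPKM) than in the standard pair (342 and 232 RPKM), and their part in the larger differences was not tested. A limma fit over the 4 libraries with library type as a covariate gave 1 residual degree of freedom and a spread between library types, not between cultures. At a Benjamini-Hochberg adjusted p under 0.05 it passed 0.715% of 11474 genes as higher and 0.105% as lower. Of the 35 carriers it passed Slc25a10 alone as higher and 0 as lower, while 17 had an unadjusted p under 0.05, as had 26.3% of all genes. With a trend of the spread on the level, limma passed 3 carriers as higher (Slc25a10, Slc25a22 and Slc25a25) and 0 as lower, against 1.41% and 0.209% of all genes, and 18 had an unadjusted p under 0.05, as had 27.3%.

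**Figure D1:**
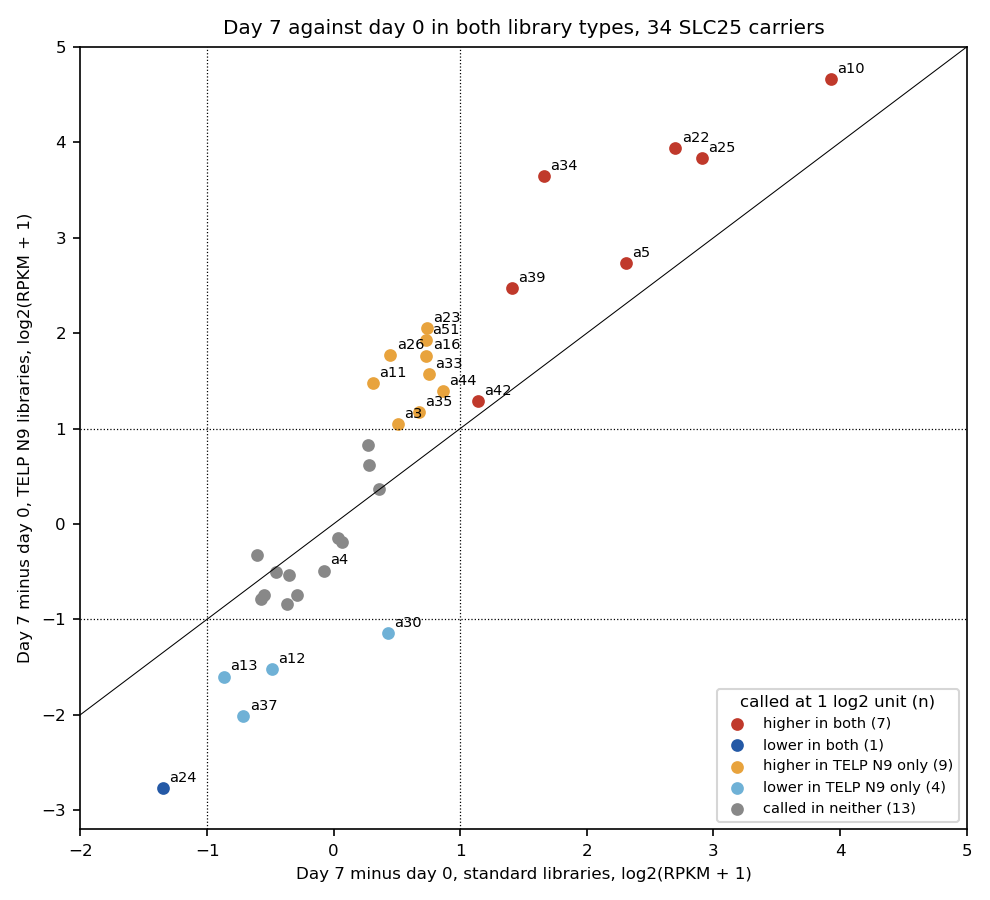
Difference of day 7 minus day 0 in log2(RPKM + 1) for 34 of the 35 carriers kept, standard libraries on the horizontal and TELP N9 libraries on the vertical axis; each point is 1 carrier, coloured by its call at 1 log2 unit (dotted lines), and the solid line marks equal differences. The 7 carriers shown that were called higher in both types lie in the upper right with Slc25a10 farthest out, at 3.92 and 4.66, and Slc25a24 lies alone in the lower left.

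The ATP-synthase supply carriers held most of the family's RNA. Together Slc25a3, the phosphate carrier, and the ADP/ATP carriers Slc25a4 and Slc25a5 made up between 54.3% and 66.9% of the summed carrier RPKM in each library. That sum was 996 and 942 RPKM at day 0, and 1653, 2225, 2281 and 356 RPKM at day 7. Without these 3 it was 329 and 323 RPKM at day 0, and 556, 996, 1043 and 118 RPKM at day 7.

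Slc25a5, the broadly expressed ADP/ATP carrier, was at 84.3 and 87.2 RPKM at day 0, and 423, 586, 561 and 88.6 RPKM at day 7. It was higher by 2.31 log2 units in the standard pair and 2.74 in the TELP N9 pair (limma adjusted p = 0.0688). Every day 7 value lay above both day 0 values, though the T18 value only just. Slc25a4, the ADP/ATP carrier that prevails in heart and muscle, was at 326 and 338 RPKM at day 0, and 309, 240.3, 249 and 69.7 RPKM at day 7. Its differences of -0.07 and -0.49 were called in neither type (limma adjusted p = 0.567). The order of the ADP/ATP carriers therefore turned over: the ratio of Slc25a5 to Slc25a4 was 0.259 and 0.258 at day 0, and 1.37, 2.44, 2.25 and 1.27 at day 7. A single scaling factor per library cannot change such a ratio, and all day 7 libraries lay above all day 0 libraries. Slc25a31, the germ cell member of this group, was listed at 0 throughout.

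Slc25a3 was at 256 and 194 RPKM at day 0, and 365, 402, 428 and 79.7 RPKM at day 7, and was called higher in TELP N9 only (1.04, against 0.51 in the standard pair). That call was lost under equal totals without small noncoding RNAs (0.896) and quantile normalization (0.772). The ADP/ATP carriers are close copies of each other, and how the authors' counting shared reads between such copies is not given in the sources used here, so the levels of Slc25a4 and Slc25a5 are uncertain to that extent.

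The calcium-regulated ATP-Mg/phosphate carriers set the adenine nucleotide pool of the matrix, and their members went opposite ways. Slc25a25 was at 2.25 and 1.60 RPKM at day 0, and 23.4, 36.2, 36.6 and 1.13 RPKM at day 7. It was higher by 2.91 (standard) and 3.84 log2 units (TELP N9) (limma adjusted p = 0.0587), but its T18 value lay below both day 0 values. Slc25a24 was at 38.3 and 32.7 RPKM at day 0, and 14.5, 3.94, 3.87 and 2.05 RPKM at day 7. It was lower by 1 log2 unit or more in both types, with differences of -1.35 and -2.77 (limma adjusted p = 0.127), and was the only carrier so called. Slc25a24 was the more abundant of the pair at day 0 and Slc25a25 at day 7 in the standard, N9 and N9_ss libraries. The ratio of Slc25a25 to Slc25a24 was 0.0588 and 0.0491 at day 0, and 1.62, 9.20, 9.45 and 0.552 at day 7. Their sum stayed between 34.3 and 40.6 RPKM in all libraries but T18, where it was 3.17 RPKM. Slc25a23, the third of these carriers, was at 1.03 and 0.475 RPKM at day 0, and 2.39, 5.12, 5.05 and 0.332 RPKM at day 7 and called higher in TELP N9 only.

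Promoter windows from RefSeq (GRCm38.p6, a build other than the mm9 of the expression table) are shown for Slc25a24 and Slc25a25, the paralogs that changed places, and for Slc25a10, the carrier with the largest differences. Each runs from 250 bases before to 50 after an annotated start, 5′ to 3′ on the strand of the gene. The windows lie at chr3:109122899-109123198, plus strand for Slc25a24, at chr2:32424017-32424316, minus strand and chr2:32431102-32431401, minus strand for 2 of the 3 annotated starts of Slc25a25, and at chr11:120491587-120491886, plus strand for Slc25a10. Capitals mark matches to the cAMP response element TGACGTCA and to the C/EBP motif TTGCNNAA on either strand. The starts of Slc25a25 are numbered by genome coordinate, so on the minus strand its first start is the furthest downstream.
Slc25a25, first start: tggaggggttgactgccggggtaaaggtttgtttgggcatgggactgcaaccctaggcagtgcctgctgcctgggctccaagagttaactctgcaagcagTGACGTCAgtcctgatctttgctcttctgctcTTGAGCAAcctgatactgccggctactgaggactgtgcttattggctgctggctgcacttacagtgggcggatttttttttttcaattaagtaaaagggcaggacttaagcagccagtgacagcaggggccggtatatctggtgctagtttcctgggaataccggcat
Slc25a25, second start: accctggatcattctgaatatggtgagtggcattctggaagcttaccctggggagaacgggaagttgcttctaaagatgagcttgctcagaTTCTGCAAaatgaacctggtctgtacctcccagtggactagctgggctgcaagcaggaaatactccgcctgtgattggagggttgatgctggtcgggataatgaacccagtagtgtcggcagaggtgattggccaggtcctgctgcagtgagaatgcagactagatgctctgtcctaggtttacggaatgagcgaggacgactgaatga
Slc25a24: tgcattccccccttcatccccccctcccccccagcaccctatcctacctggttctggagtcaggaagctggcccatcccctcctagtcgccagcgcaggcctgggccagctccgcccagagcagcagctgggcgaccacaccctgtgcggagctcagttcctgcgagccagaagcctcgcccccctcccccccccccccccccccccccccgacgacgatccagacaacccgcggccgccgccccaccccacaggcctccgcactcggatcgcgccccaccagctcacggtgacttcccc
Slc25a10: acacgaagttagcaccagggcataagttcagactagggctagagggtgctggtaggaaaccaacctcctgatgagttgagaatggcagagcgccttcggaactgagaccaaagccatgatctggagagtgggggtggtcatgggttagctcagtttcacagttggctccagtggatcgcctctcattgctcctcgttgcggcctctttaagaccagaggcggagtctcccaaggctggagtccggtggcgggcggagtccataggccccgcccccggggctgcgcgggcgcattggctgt

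In the first Slc25a25 window the cAMP response element begins at position -150 from the start and the C/EBP match at -118, and in the second a C/EBP match begins at -159. The third Slc25a25 window, at chr2:32451421-32451720, minus strand, is not printed and holds no match to any of the 6 motifs searched. It belongs to the start that lies furthest upstream. The Slc25a24 and Slc25a10 windows hold none of the 6 either. Of 44 windows of 34 carriers, 2 (4.55%, Slc25a25 and Slc25a36) hold the cAMP response element, against 1.79% of all 32851 windows, and 3 (6.82%) the C/EBP motif, against 10.8%. The motif of nuclear respiratory factor 1, GCGC followed after 1 base by TGCGC, is in 2 (4.55% against 4.6%, Slc25a3 and Slc25a31) and the E-box CACGTG in 7 (15.9% against 7.15%). The motif TCAAGGTCA of the oestrogen-related receptors and the direct repeat bound by PPAR with RXR, AGGNCA repeated after 1 base, have no match in any carrier window, against 0.423% and 0.381% of all windows. Over the 20412 windows of genes in the expression table the shares were 2.31%, 10.1%, 6.43%, 8.09%, 0.323% and 0.372%, in the order given. The 3 C/EBP windows belong to 2 carriers and the 7 E-box windows to 6, with 2 overlapping windows of Slc25a14. Both strands were searched, and no matches overlapped within a carrier window. Carrier windows had a median GC content of 59.3% and 15 CpG, against 52.7% and 7 over all windows. A match is a run of letters, not a binding site, and RPKM per gene do not show which start was used.

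Among the dicarboxylate and oxoacid carriers Slc25a10 stood first. This carrier exchanges malate or succinate for phosphate. It was at 3.73 and 5.44 RPKM at day 0, and 70.8, 162, 173 and 22.8 RPKM at day 7. Its day 7 values all lay above both day 0 values, T18 included. The difference was 3.92 log2 units with standard and 4.66 with TELP N9 libraries, each the largest of any carrier. Over both types limma gave 4.29 (SE 0.35) with an adjusted p of 0.0397. That call was lost in 6 of the 8 alternatives, where the adjusted p ran up to 0.422. Slc25a11, the oxoglutarate/malate carrier of the malate-aspartate shuttle, was at 44.1 and 35.1 RPKM at day 0, and 54.8, 99.6, 106 and 11.8 RPKM at day 7. It was called higher in TELP N9 only (1.48, against 0.31). The ratio of Slc25a10 to Slc25a11 was 0.0846 and 0.155 at day 0, and 1.29, 1.63, 1.63 and 1.93 at day 7, so that the dicarboxylate carrier passed the oxoglutarate carrier in every day 7 library. Slc25a21, which carries oxoadipate, was under the filter.

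The aspartate and glutamate carriers also parted. Slc25a22, which brings glutamate in with a proton, was at 3.56 and 4.94 RPKM at day 0, and 28.6, 90.0, 91.1 and 2.78 RPKM at day 7. It was higher by 2.70 (standard) and 3.94 log2 units (TELP N9) (limma adjusted p = 0.0688), and its T18 value lay below day 0. The aspartate/glutamate exchangers of the malate-aspartate shuttle were called lower in TELP N9 only. Slc25a12 (aralar) was at 18.9 and 15.3 RPKM at day 0, and 13.2, 4.68, 5.11 and 1.47 RPKM at day 7, with a difference of -1.52 there and -0.48 in the standard pair. Slc25a13 (citrin) was at 2.41 and 2.60 RPKM at day 0, and 0.870, 0.187, 0.178 and 0.144 RPKM at day 7, with -1.60 in TELP N9 and -0.86 in the standard pair. Both exchangers lay below both day 0 values in the standard and TELP N9 libraries of day 7. The N9_ss and T18 values were lower too, but add little. N9_ss is treated as 1 sample with N9, and 83.4% of all genes kept were called lower in T18 than in N9.

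Citrin is near the limit of these libraries. Read numbers recovered for it from the steps of low values were 101, 172, 36, 3, 3 and 2 in the order of the libraries. They are the smallest whole numbers that fit, so the true numbers may be a multiple of them. The 3 reads of TELP N9 at day 7 have an exact Poisson 95% interval of 0.619 to 8.77, and the 36 of the standard library one of 25.2 to 49.8; these intervals cover counting error only. Within each library the ratio of Slc25a22 to Slc25a12 was 0.188 and 0.322 at day 0, and 2.17, 19.2, 17.8 and 1.89 at day 7, and that of Slc25a13 to Slc25a12 was 0.127 and 0.170 at day 0, and 0.0658, 0.0399, 0.0349 and 0.0982 at day 7. Slc25a18, a second glutamate carrier, was under the filter.

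Carriers of cofactors and nucleotides made up 9 of the 35 kept. In the standard pair 2 of them were called higher and in the TELP N9 pair 6, with 0 lower in either. Over all genes kept 8.22% and 13.9% were higher, and 6.53% and 29.9% lower. Slc25a42, a carrier of coenzyme A, was at 7.98 and 9.93 RPKM at day 0, and 18.8, 25.7, 26.3 and 1.70 RPKM at day 7. Its differences of 1.14 and 1.29 were the most alike among the carriers called in both types (limma adjusted p = 0.142), with T18 below day 0.

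Called higher in TELP N9 only were Slc25a51, which carries NAD, Slc25a16, linked to coenzyme A, Slc25a26, which carries S-adenosylmethionine, and Slc25a33, a pyrimidine nucleotide carrier. Slc25a51 was at 14.7 and 16.8 RPKM at day 0, and 25, 66.6, 65.0 and 6.14 RPKM at day 7, and all 4 were above their day 0 values in the standard library too, by 0.45 to 0.75 log2 units. Slc25a16 was at 7.61 and 8.79 RPKM at day 0, and 13.3, 32.3, 32.3 and 6.21 RPKM at day 7, and Slc25a26 at 1.56 and 1.18 RPKM at day 0, and 2.50, 6.44, 6.66 and 0.276 RPKM at day 7. Both were thus highest in the N9 and N9_ss libraries. Slc25a33 was at 1.62 and 1.45 RPKM at day 0, and 3.41, 6.29, 6.43 and 2.63 RPKM at day 7. The other pyrimidine nucleotide carrier, Slc25a36, was at 19.7 and 19.5 RPKM at day 0, and 13.1, 11.2, 10.7 and 2.06 RPKM at day 7, lower at day 7 but called in neither type. The ratio of Slc25a36 to Slc25a33 was 12.2 and 13.4 at day 0, and 3.85, 1.78, 1.66 and 0.781 at day 7. Slc25a32, which serves folate and FAD, and the peroxisomal carrier Slc25a17 were called in neither, with differences between -0.54 and 0.37. Slc25a17 was the most abundant of the 9 at day 0, at 30.1 and 31.0 RPKM at day 0, and 38.9, 40.2, 39.8 and 11.2 RPKM at day 7. Slc25a32 was at 5.32 and 6.62 RPKM at day 0, and 3.96, 4.24, 4.49 and 1.22 RPKM at day 7.

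Of 4 iron and glutathione carriers kept, 1 was called higher and 0 lower in both types, against 7.23% and 5.81% of all genes kept. Slc25a39, a carrier of glutathione, was at 42.9 and 39.9 RPKM at day 0, and 115, 226, 258 and 18.8 RPKM at day 7. It was higher by 1.41 and 2.47 log2 units (limma adjusted p = 0.119), with T18 below day 0. Its paralog Slc25a40 was at 5.50 and 4.69 RPKM at day 0, and 5.81, 3.97, 3.93 and 0.737 RPKM at day 7, with differences of 0.07 and -0.20. The ratio of Slc25a39 to Slc25a40 was 7.79 and 8.52 at day 0, and 19.8, 56.9, 65.7 and 25.6 at day 7, higher in each day 7 library than in either of day 0.

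The mitoferrins, which bring iron to heme and iron-sulfur cluster synthesis, also exchanged their order, but stood nearly level in the standard day 7 library. In T18 both were under 1 RPKM. Slc25a28 (mitoferrin 2) was at 5.01 and 7.50 RPKM at day 0, and 6.30, 12.0, 12.0 and 0.946 RPKM at day 7, and Slc25a37 (mitoferrin 1) at 10.0 and 13.2 RPKM at day 0, and 5.73, 2.52, 2.41 and 0.530 RPKM at day 7. Slc25a28 was called in neither type, and Slc25a37 was called lower in TELP N9 only (-2.01, against -0.71). The ratio of Slc25a28 to Slc25a37 was 0.499 and 0.567 at day 0, and 1.10, 4.76, 4.98 and 1.79 at day 7.

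Of 4 amino acid carriers kept outside the aspartate and glutamate group, 1 was called higher in the TELP N9 pair, against 13.9% of all genes kept. In that pair 0 were called lower, against 29.9%. The standard pair gave 0 calls, against 8.22% higher and 6.53% lower. Slc25a44, which carries branched-chain amino acids, was at 13.5 and 14 RPKM at day 0, and 25.4, 38.4, 36.8 and 4.70 RPKM at day 7 and called higher in TELP N9 only (1.39, against 0.86). Slc25a15 for ornithine, Slc25a29 for basic amino acids and Slc25a38 for glycine were called in neither, between -0.60 and 0.03 log2 units. Slc25a15 hardly differed between the days outside T18, at 3.33 and 3.95 RPKM at day 0, and 3.42, 3.46, 3.31 and 1.03 RPKM at day 7, and Slc25a29 was at 1.74 and 2.06 RPKM at day 0, and 0.801, 1.44, 1.38 and 0.477 RPKM at day 7. Slc25a38, which feeds heme synthesis, was at 4.59 and 6.79 RPKM at day 0, and 3.07, 4.48, 4.54 and 0.914 RPKM at day 7.

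Of the 3 uncoupling-protein-like members Slc25a14, Slc25a27 and Slc25a30, 0 were called higher at day 7 in either pair. Of all genes kept, 8.22% (standard) and 13.9% (TELP N9) were. Called lower were 0 of 3 in the standard and 1 of 3 in the TELP N9 pair, against 6.53% and 29.9% of all genes. With 3 genes, nothing is read from these counts. Slc25a30 was at 6.24 and 6.55 RPKM at day 0, and 8.73, 2.42, 2.43 and 0.698 RPKM at day 7. It was above day 0 in the standard pair (0.43) and called lower in the TELP N9 pair (-1.14), and the difference between the pairs was not tested. The TELP N9 call was lost under median-of-ratios scaling (-0.67) and quantile normalization (-0.56). Slc25a14 was at 2.88 and 2.51 RPKM at day 0, and 1.61, 1.03, 0.989 and 1.71 RPKM at day 7 and rests on few reads, 51, 70, 28, 7, 7 and 10. Slc25a27 was at 1.76 and 1.58 RPKM at day 0 and at 1.14 and 0.439 RPKM in the standard and TELP N9 libraries at day 7, and listed at 0 in T18. Its differences were not called (-0.37 and -0.84).

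Of the less characterised members Slc25a34 was called higher in both types, at 1.82 and 2.26 RPKM at day 0, and 7.90, 39.9, 38.6 and 1.95 RPKM at day 7. Its differences of 1.66 and 3.65 lay 1.99 log2 units apart, the widest gap between types of any carrier (limma adjusted p = 0.123). Slc25a35 was at 5.6 and 4.81 RPKM at day 0, and 9.51, 12.1, 11.5 and 2.97 RPKM at day 7, called higher in TELP N9 only (1.17). Slc25a45 was at 1.92 and 2.17 RPKM at day 0, and 1.38, 0.892, 0.852 and 0.129 RPKM at day 7, called in neither, with 1 recovered read in T18. Slc25a46, an outer membrane protein tied to mitochondrial shape, was at 14.5 and 11.9 RPKM at day 0, and 17.6, 21.8, 21.9 and 3.12 RPKM at day 7 and called in neither.

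**Figure D2:**
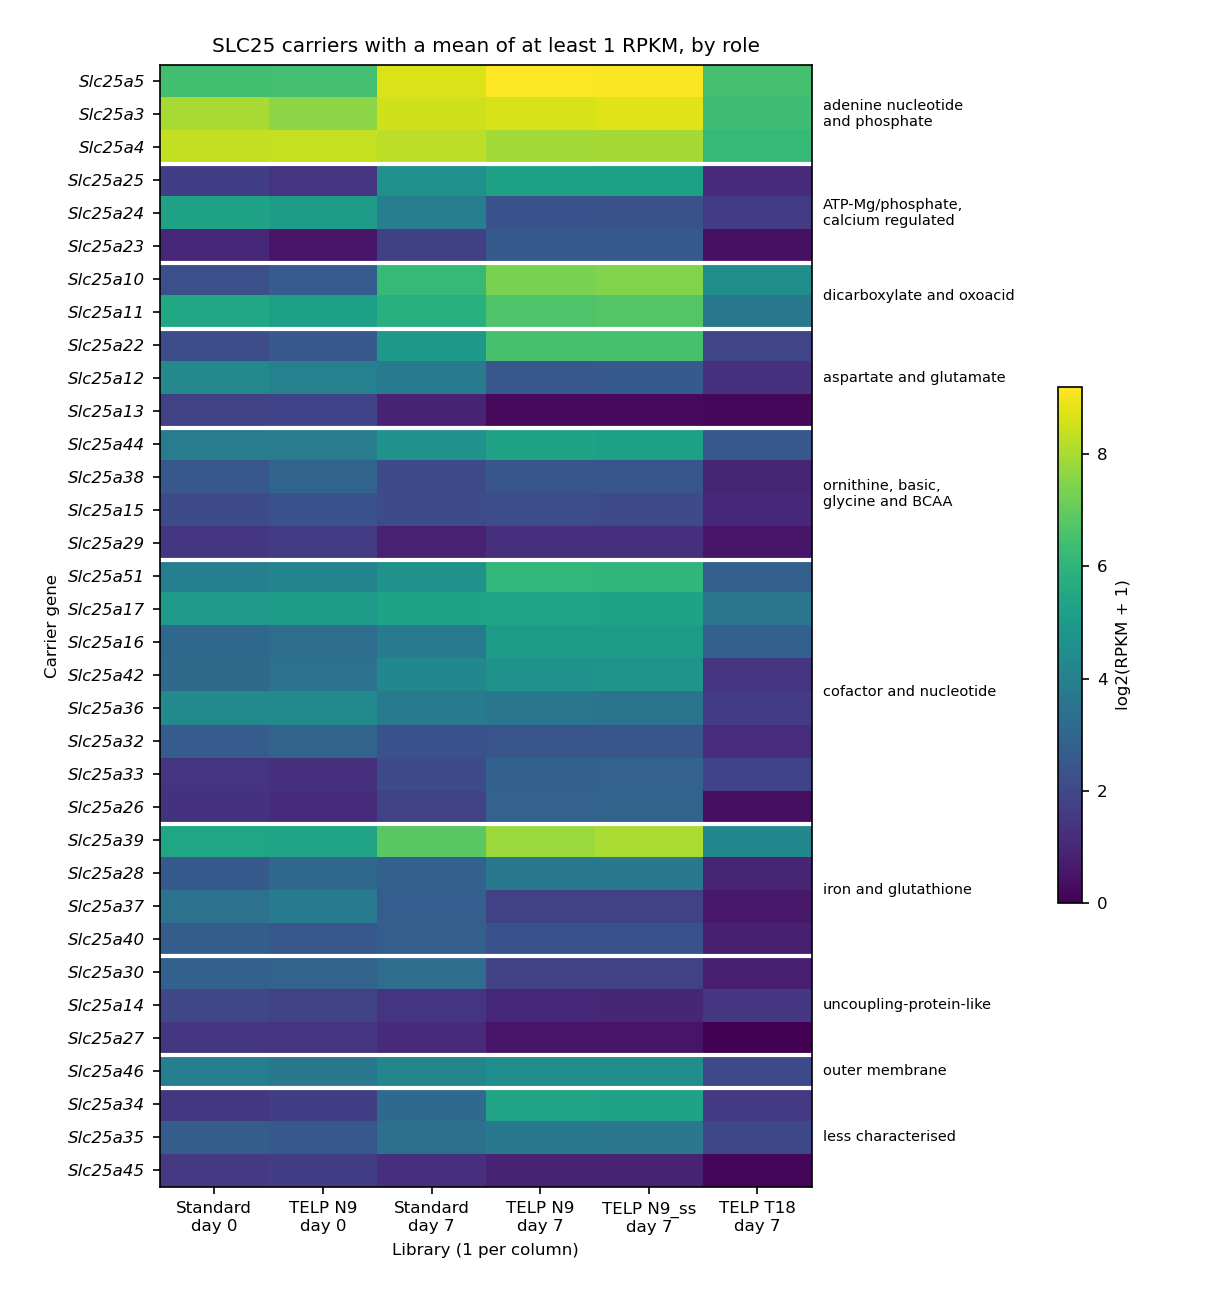
Level of 34 of the 35 carriers kept, as log2(RPKM + 1) by colour, with 1 column per library and carriers grouped by role, the most abundant first in each group. Slc25a3, Slc25a4 and Slc25a5 are the brightest in every library but N9_ss, where Slc25a39 stands above Slc25a4; Slc25a10, Slc25a22 and Slc25a25 go from dark at day 0 to bright in the standard, N9 and N9_ss libraries at day 7, and the T18 column is darker nearly throughout.

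Shares of the family's summed RPKM describe the carriers without any scaling of libraries, although a larger share of one lowers those of the rest. Of the 35 kept, 8 had a larger share in the standard, TELP N9 and T18 libraries of day 7 than in both day 0 libraries, 15 had a smaller share, and 12 overlapped. Over all 11474 genes kept, RPKM divided by the same carrier sum lay above day 0 in these libraries for 6.4% and below for 73.5%. Without T18 the carriers numbered 11 above, 17 below and 7 overlapping, against 8.18% and 79.7% of all genes above and below. The 5 that overlapped only once T18 was counted were Slc25a23, Slc25a42 and Slc25a44, otherwise above, and Slc25a14 and Slc25a17, otherwise below. Among the 8 were Slc25a5, Slc25a10, Slc25a22, Slc25a25, Slc25a33, Slc25a34 and Slc25a39. Slc25a10 held 0.375% and 0.578% at day 0, and 4.29%, 7.29% and 6.40% in the standard, TELP N9 and T18 libraries at day 7. Slc25a5 held 8.47% and 9.25% at day 0, and 25.6%, 26.3% and 24.9% in the standard, TELP N9 and T18 libraries at day 7, values at day 7 that lie within 2 percentage points of each other. Slc25a4 held 32.7% and 35.8% at day 0, and 18.7%, 10.8% and 19.6% in the standard, TELP N9 and T18 libraries at day 7, and Slc25a24 3.85% and 3.47% at day 0, and 0.874%, 0.177% and 0.575% in the standard, TELP N9 and T18 libraries at day 7. The paralog ratios above were chosen after their values were seen and carry no test.

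**Figure D3:**
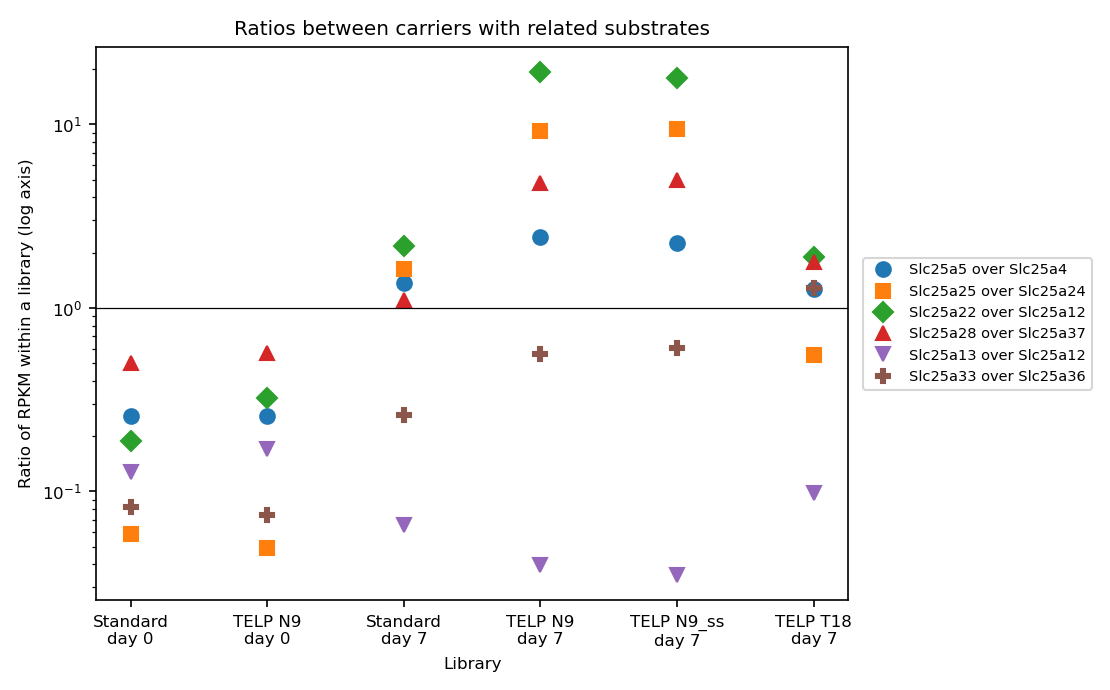
Ratio of RPKM between 2 carriers of related substrates, on a log axis, in each of the 6 libraries; each marker shape is 1 pair and the line marks a ratio of 1. The ratio of Slc25a5 to Slc25a4 crosses the line in all day 7 libraries, that of Slc25a25 to Slc25a24 in all but T18, and that of Slc25a13 to Slc25a12 is 0.0982 or less at day 7.

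Other genes, of mitochondrial transport and of related metabolism, were taken from 10 lists. Among these lists were the malate-aspartate shuttle enzymes, the urea cycle and ornithine enzymes, and iron-sulfur and heme synthesis. From all lists together 48 genes were kept. In both library types 17 (35.4%) were called higher and 2 (4.17%) lower, against 7.23% and 5.81% of all genes kept, with a median of 0.76 log2 units over both, beside -0.32 for all genes. The counts of single lists that follow are over both types too and stand beside the same shares of all genes. The carriers reach the inner membrane by the TIM22 route, and 6 of its 8 genes were called higher in both types and 0 lower. By the mean of both types the largest were Timm10 (1.26 and 2.10), Timm8a1 (1.09 and 2.12) and Timm9 (1.25 and 1.51). Mpc1 and Mpc2, the subunits of the pyruvate carrier, were both called higher. Mpc1 was at 19.0 and 28.2 RPKM at day 0, and 71.1, 226, 216 and 66.8 RPKM at day 7, and Mpc2 at 40.0 and 59.2 RPKM at day 0, and 152, 402, 436 and 94.2 RPKM at day 7.

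Of the uncoupling proteins and carrier homologues 4 were kept, with 2 called higher in both types. Ucp2 was at 0.0506 and 0.0322 RPKM at day 0, and 13.4, 46.6, 46.0 and 4.05 RPKM at day 7, and Ucp3 stood at 0 in both libraries of day 0 and reached 3.52, 5.74, 5.64 and 0.935 RPKM at day 7. Ucp1, which releases heat in brown fat, was at 0 in 4 libraries, with 0.882 RPKM in N9 and 0.843 in N9_ss. Of the malate-aspartate shuttle enzymes the malate dehydrogenases Mdh1 (2.52 and 3.11) and Mdh2 (1.90 and 3.10) were called higher in both types. The aminotransferases were not, with Got1 at 0.53 and 0.03 and Got2 at 0.07 and -1.27.

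Iron-sulfur and heme synthesis had 2 of 7 genes called higher in both types. Alas1, the first enzyme of heme synthesis, differed by 2.94 and 3.93, and the cysteine desulfurase Nfs1 by 1.44 and 1.67. Of 4 mitochondrial ABC transporters Abcb6 and Abcb8 were called higher. Of 8 genes of calcium and cation exchange Letm1 was called higher and Ccdc109b, a uniporter subunit, lower. Of 3 urea cycle and ornithine enzymes kept, Ass1 was called lower (-1.23 and -1.93). The 5 sideroflexins and 3 outer membrane porins had none called in both types.

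The carriers were set beside other groups. Of 81 genes of the respiratory chain and ATP synthase 51 were called higher and 0 lower in both types, with a median of 1.5 log2 units. Mitochondrial ribosomal proteins gave 12 higher and 0 lower of 77, with a median of 0.80, and the other solute carriers 13 higher and 8 lower of 135, with a median of -0.20. Of all genes kept 7.23% were called higher and 5.81% lower in both types. Of the 35 carriers kept 8 (22.9%) were called higher and 1 (2.86%) lower, with a median over both types of 0.55, against -0.32 for all genes. By share called higher they lay above the mitochondrial ribosomal proteins (15.6%), and by median below them. No test was made of the differences between these groups.

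The TELP method was compared with the standard procedure at each day. At day 0 none of 34 carriers kept was called in either direction, against 2.2% of all genes higher and 0.718% lower, and their differences ran from -0.40 to 0.50 log2 units. The highest were Slc25a28, Slc25a38 (0.48) and Slc25a10 (0.45), and the lowest Slc25a3, Slc25a11 (-0.32) and Slc25a25 (-0.32). The median was 0.05, beside 0.01 for all genes.

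At day 7, 7 of 33 carriers kept were called higher in TELP N9 and 3 lower, against 7.51% and 17% of all genes. Slc25a34 (2.20), Slc25a22 (1.62) and Slc25a51 (1.38) were highest, and Slc25a24 (-1.65), Slc25a30 (-1.51) and Slc25a12 (-1.32) lowest. All 6 named lay on the side to which they differed between the days in the TELP N9 pair. That comparison shares the TELP N9 day 7 library with this one, which partly fixes the outcome, so no conclusion is drawn from it. At day 7 summed adipocyte markers were 32463 RPKM in TELP N9 and 14714 in the standard library, summed preadipocyte markers 53.0 and 232 RPKM, and Pdgfra of the latter list 4.65 and 52.0 RPKM. The part of these markers in the carrier differences was not tested. Among all genes called, 30.7% were higher in TELP N9, against 56.7%, 17.5% and 48.8% under median-of-ratios scaling, equal totals without small noncoding RNAs and quantile normalization. The median of the carriers was 0.43 as deposited, and 0.77, 0.19 and 0.54 under these scalings.

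N9_ss did not serve as a second TELP library. No carrier of 32 kept was called between N9_ss and N9, as were only 0.0194% and 0.00968% of all genes, higher and lower. The largest difference was that of Slc25a39 (0.19). Of 40 carriers above 0 in N9, at any level, 14 had in N9_ss the same number of reads within 0.1%, once the value of 1 read was set equal. Of the 3642 genes above 0 and under 1 RPKM in N9, 83.3% had. The latter set holds low genes only, so the shares are not compared. N9_ss and N9 were therefore treated as 1 sample, and N9_ss enters only in place of N9 as an alternative.

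In T18, 29 of 31 carriers kept were called lower than in N9 and 0 higher, against 83.4% and 0.841% of all genes. The median was -2.21, beside -1.77 for all genes. Lowest were Slc25a22 (-4.59), Slc25a25 (-4.13) and Slc25a34 (-3.80), and highest Slc25a14 (0.41), Slc25a24 (-0.70) and Slc25a33 (-1.01). Small noncoding RNAs took 81.0% of summed RPKM in T18 and 36.0% in N9, and their part in these values was not tested beyond the scalings. The shift of all genes went from -1.77 to -0.05, -0.45 and 0.00 under median-of-ratios scaling, equal totals without small noncoding RNAs and quantile normalization, with 46.8%, 20.3% and 49.4% of called genes higher, against 0.999% as deposited. Under them the median of the carriers was -0.17, -0.59 and -0.17, and Slc25a12 and Slc25a33 turned from lower to higher under all 3.

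**Figure D4:**
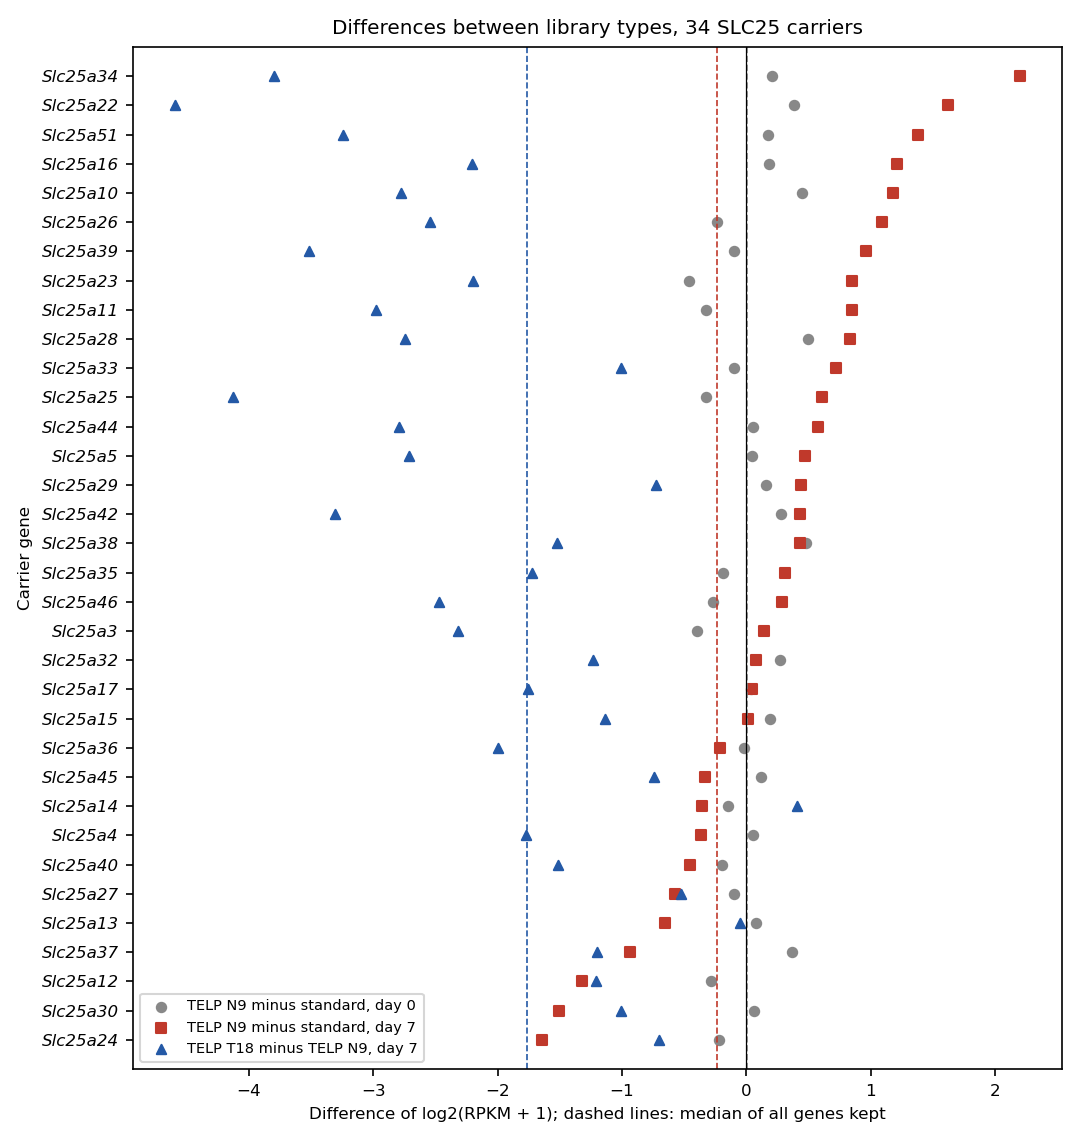
Difference of log2(RPKM + 1) between library types for 34 of the 35 carriers kept over 4 libraries, including those under the filter of a single comparison; circles show TELP N9 minus standard at day 0, squares the same at day 7 and triangles T18 minus N9 at day 7, with dashed lines at the medians of all genes kept. Circles stay within 0.50 log2 units of 0, squares run from -1.65 for Slc25a24 to 2.20 for Slc25a34, and triangles reach -4.59 for Slc25a22.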

How the data were processed

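RNA was measured in 6 libraries, 1 per group. The authors deposited RPKM values for 24029 genes; Bowtie2, TopHat and Cufflinks with the mm9 build are named per the submitters' processing notes. Their versions, settings, annotation, strand handling, read totals and treatment of reads shared by gene copies are not given in the sources. All 45 carrier symbols were found among current mouse gene symbols. Relative depth came from the steps of values under 1 RPKM, and a round through 4 libraries returned a product of 1.00. Whole reads could be recovered for 9 low carriers, so no count test was run.

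Differences used log2(RPKM + 1), a mean of at least 1 RPKM and a call at 1 log2 unit, without a test. limma 3.58.1 in R 4.3.3 was fitted over 4 libraries with Benjamini-Hochberg adjustment over all 11474 genes kept. It was also run on simulated counts. Those held no effect of library type on expression, so that run says nothing about the spread in these data. Members, roles, lists and markers were chosen with earlier results of these data known. Values in every library are given for carriers called in both library types, the 6 most abundant, those whose day difference differs by at least 1.5 log2 units between types, and the 3 highest and lowest of each comparison between library types; others named were chosen after their values were seen. One carrier that this rule takes is counted but not reported here by name or plotted. Of each of the 10 lists of other genes up to 3 called in both types are named, with the uncoupling proteins. Alternatives were a smaller pseudocount (0.1 RPKM), a filter at 5 RPKM or none, 3 scalings, N9_ss or T18 in place of N9, and limma with a trend. RefSeq promoter windows (GRCm38.p6) were found for 34 of 45 carriers.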

Additional observations from a re-analysis of the deposited data

Results flagged for a closer look

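Slc25a30, an uncoupling-protein-like carrier, moved in opposite directions in the library types. Between day 0 and day 7 it differed by 0.43 log2 units in the standard and by -1.14 in the TELP N9 libraries, a difference between types of -1.57. The TELP N9 difference was -0.67 under median-of-ratios scaling and -0.56 under quantile normalization. With 1 library per group this difference was not tested.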

How the results depend on the processing

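No paired analysis was possible because each RNA group holds 1 library and the RNA libraries carry no replicate number; the limma fit has library type, not a replicate, as its blocking term. Of 110 counts of carriers recomputed under an alternative, 85 stayed within 1.5 times the reported count and 25 did not. All 8 carriers higher and the 1 lower in both types were called under each of the 7 alternatives tried for that count (T18 in place of N9 was tried for the TELP N9 pair alone), while a pseudocount of 0.1 RPKM gave 10 higher (with Slc25a23 and Slc25a33) and 2 lower (with Slc25a13), and quantile normalization 9 higher (with Slc25a44). Of the 9 higher and 4 lower in TELP N9 only, 8 and 3 were called in that pair under each of these 7 alternatives that kept them, and Slc25a3 and Slc25a30 lost the call under 2 each. For day 7 against day 0, that pseudocount gave 3 of 35 carriers lower with standard and 8 of 35 with TELP N9 libraries. Over all genes it gave 995 lower of 11312 and 3949 of 11360. In the TELP N9 pair carriers called lower numbered 3 under a filter at 5 RPKM, median-of-ratios scaling and quantile normalization alike. These kept 24, 33 and 33 carriers, and all genes called lower numbered 2285 of 8090, 1900 of 10905 and 2138 of 11189. With T18 in place of N9 that pair gave 1 higher and 22 lower of 32 carriers kept. Over all 10775 genes kept, 274 were then called higher and 9351 lower. The median difference was -1.40 for the carriers and -2.11 for all genes. Along with that general shift, Slc25a3 (-1.28), Slc25a11 (-1.50), Slc25a22 (-0.65), Slc25a25 (-0.29), Slc25a28 (-2.13), Slc25a34 (-0.15), Slc25a39 (-1.04), Slc25a42 (-2.02) and Slc25a51 (-1.31) turned to lower. For TELP N9 against standard at day 7, carriers called higher numbered 11 of 31 under median-of-ratios scaling and 3 of 32 under equal totals. All genes called higher numbered 1379 of 10661 and 539 of 10917 there. For T18 against N9, carriers called lower numbered 19 of 19 under the filter at 5 RPKM, against 4865 of 5402 genes. Under median-of-ratios scaling, equal totals and quantile normalization 9, 12 and 8 of 32 carriers were called lower, and 2, 1 and 2 higher. All genes called lower numbered 1611 of 10596, 2577 of 10171 and 1491 of 10973 under these scalings. Those called higher numbered 1419, 658 and 1458. Median-of-ratios scaling turned Slc25a4 (0.44), Slc25a12 (0.46), Slc25a24 (1.08), Slc25a30 (0.31) and Slc25a33 (0.86) to higher in T18, equal totals Slc25a12 (0.0683) and Slc25a33 (0.43), and quantile normalization Slc25a4 (0.19), Slc25a12 (0.54), Slc25a24 (1.11), Slc25a30 (0.33), Slc25a33 (0.89) and Slc25a38 (0.0278). The limma count of 1 carrier higher became 0 without a filter, with one at 5 RPKM, with the smaller pseudocount, median-of-ratios scaling, quantile normalization or N9_ss in place of N9, 5 under equal totals and 3 with a trend; the adjusted p of Slc25a10 ran from 0.00557 to 0.422. The cause of these changes was not tested. Values rest on 1 library per group, the T18 and TELP N9 day 7 libraries hold under 0.4 times the depth of the standard ones, and carriers near 1 RPKM rest there on 10 recovered reads or fewer.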
